A study of Mus musculus with 4 samples.

Results

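Excitation-contraction coupling and the calcium store of muscle fibres were followed through 10 genes, Cacna1s, Cacnb1, Stac3, Ryr1, Casq1, Casq2, Jph1, Jph2, Sln and Pln. They were taken by gene name from the 22252 gene names with expected counts, by a choice made with earlier results of these data known. Their RNA was measured in gastrocnemius muscle, a mostly fast-twitch calf muscle, of 7-week-old male C57BL/6J mice. All 4 groups carried floxed glucocorticoid receptor (GR) alleles, written GR Flox+/+. The lean groups were Lep+/+ and the obese groups Lepob/ob, which lack leptin. Within each of these, GRf/f mice had no Cre (Cre-/-) and GRmKO mice had it (Cre+/-). Cre was driven by the promoter of Acta1, the skeletal muscle actin gene, so the receptor gene was deleted in myofibres and not in the other cells of the muscle, and no group carried Cre without the floxed alleles. Each group was 1 library made from the pooled RNA of 3 mice. With no replicate libraries, no difference could be tested against the variation between mice, and the 95% intervals given below (Wilson) cover counting error only.

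A nerve impulse spreads along the fibre surface and into the transverse tubules, where the voltage sensor, a calcium channel of the surface membrane, changes its shape. In skeletal muscle the sensor acts mechanically on the ryanodine receptor of the sarcoplasmic reticulum, which then releases stored calcium and sets off contraction. Junctophilins hold both membranes together at this junction, called the triad, calsequestrins bind the stored calcium, and calcium pumps of the SERCA family return it to the store. Slow fibres and heart use a partly different set from fast fibres. Casq2, Pln and the pump gene Atp2a2 are the forms of heart and slow fibres, and Casq1 and the pump gene Atp2a1 lead in fast fibres.

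Sln and Pln encode sarcolipin and phospholamban, small membrane proteins that bind the calcium pump and slow it. They are printed here because they changed the most among the 10 genes and because their coding sequences are short enough to be read whole. Each is coded by 1 exon on the + strand of GRCm38 (the build called mm10 by the authors), Sln at chr9:53853473-53853568 with 96 bases and 31 codons before the stop, and Pln at chr10:53343864-53344022 with 159 bases and 52 codons. The start and stop codons are in capitals, and the sequences are from the GENCODE annotation.
Sln: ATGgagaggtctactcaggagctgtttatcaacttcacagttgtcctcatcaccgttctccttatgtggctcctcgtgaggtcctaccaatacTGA
Pln: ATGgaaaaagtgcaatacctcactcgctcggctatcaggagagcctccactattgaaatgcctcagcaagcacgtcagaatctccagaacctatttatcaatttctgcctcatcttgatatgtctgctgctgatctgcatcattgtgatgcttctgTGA

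RefSeq promoter windows on GRCm38.p6, from 250 bases before to 50 bases after a gene's start, were at hand for 7 of the 10 genes and not for Sln, Jph1 and Stac3. Those of both calsequestrins and of Pln are shown, since the calsequestrins differed in their response and Pln changed in opposite directions. Casq1 is at chr1:172219846-172220145 on the - strand, Casq2 at chr3:102086165-102086464 on the + strand and Pln at chr10:53337436-53337735 on the + strand. Capitals mark matches, on either strand, to CANNTG (the E-box, bound by myogenic factors), TATAAA (known as the TATA box), AGAACA (an arm of the GR site), the full GR site made of both arms, and the MEF2 site.
Casq1: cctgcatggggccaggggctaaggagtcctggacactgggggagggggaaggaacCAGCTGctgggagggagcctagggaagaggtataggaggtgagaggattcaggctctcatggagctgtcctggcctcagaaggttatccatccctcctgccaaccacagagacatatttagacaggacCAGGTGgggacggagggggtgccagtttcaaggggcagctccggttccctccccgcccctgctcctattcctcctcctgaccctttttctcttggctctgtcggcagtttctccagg
Casq2: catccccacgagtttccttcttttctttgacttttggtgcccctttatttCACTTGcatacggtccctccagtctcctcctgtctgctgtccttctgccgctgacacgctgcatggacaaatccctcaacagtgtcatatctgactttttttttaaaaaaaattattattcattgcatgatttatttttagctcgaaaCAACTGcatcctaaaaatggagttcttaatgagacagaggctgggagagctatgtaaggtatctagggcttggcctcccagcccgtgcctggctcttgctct
Pln: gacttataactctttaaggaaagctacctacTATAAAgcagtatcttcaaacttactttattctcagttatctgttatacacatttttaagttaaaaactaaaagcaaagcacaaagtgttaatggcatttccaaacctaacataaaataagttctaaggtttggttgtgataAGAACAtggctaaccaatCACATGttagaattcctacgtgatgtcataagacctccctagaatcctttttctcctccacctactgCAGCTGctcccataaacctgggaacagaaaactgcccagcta

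An E-box stood in the first window of 5 of the 7 genes (Cacna1s, Casq1, Casq2, Pln and Jph2), and 72.3% of all 32851 promoter windows hold this short motif. The windows of Casq1, Casq2 and Pln each held 2. Pln had the only TATAAA match among the 7, a motif in 13.6% of all windows, and the only AGAACA match, found in 19.0%. No window of the 7 held the full GR site, which 0.00913% of all windows hold, or the MEF2 site, which 0.557% hold. These matches describe letters in a window and not binding.

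Library totals lay between 19897754 and 20959781 expected counts, and levels are given as CPM, a gene's count divided by the library total and multiplied by 1000000. The level that 3 counts give was 0.143 to 0.151 CPM. The targeted gene, Nr3c1, which encodes GR, was at 125 CPM in lean GRf/f and 67.0 in lean GRmKO, and at 102 in ob/ob GRf/f and 39.1 in ob/ob GRmKO, so it was lower in both GRmKO libraries. The deletion removes exon 3 alone in myofibres, and the count takes in the other exons and all other cells. The muscle's identity showed in the fast fibre markers, which summed to between 58030 and 75515 CPM. Slow fibre markers (Myh7, Myl2, Myl3, Tnnt1, Tnni1, Tnnc1, Tpm3 and Myh7b) summed to 406 CPM in lean GRf/f, 516 in lean GRmKO, 937 in ob/ob GRf/f and 1226 in ob/ob GRmKO. With 1 library per group, a gene was counted as changed when its CPM differed by at least 1.5-fold, and the same rule was applied to the 11272 genes with a mean of at least 50 expected counts. The median of these genes was shifted by -0.11 (log2) between ob/ob and lean GRf/f, by -0.20 between ob/ob and lean GRmKO, by 0.04 between the lean genotypes and by -0.04 between the ob/ob genotypes. Of the genes past 1.5-fold with obesity, 31.7% were higher in GRf/f and 20.1% in GRmKO, against 50.4% and 46.2% with DESeq2 size factors. The comparisons share libraries in pairs, so they are not independent of each other.

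All 10 genes passed the minimum of 50 counts. Sln, with a mean of 64.1 and a range from 14.0 to 165 counts, and Pln, with a mean of 51.6 and a range from 26.7 to 88.0, were close to it, and each reached it through the library where it was highest. Per kilobase of the listed transcript, Casq1 was the most abundant of the 10 in each library, with between 1822 and 2311 CPM per kb. Next came Cacna1s and Jph2, between 120 and 198 CPM per kb, whose counting intervals overlapped in lean GRmKO and in ob/ob GRf/f. Stac3, Ryr1, Cacnb1 and Jph1 lay between 59.4 and 145 CPM per kb. Casq2 followed with 12.1 to 36.1 CPM per kb, and Sln and Pln were at the bottom with 0.512 to 5.99 CPM per kb. The intervals of Sln and Pln overlapped in every library except ob/ob GRmKO, where Sln was at 5.99 and Pln at 0.885 CPM per kb. With the longest coding transcript in place of the listed one, all 10 genes kept their rank in both ob/ob libraries. In the lean libraries ranks among Stac3, Ryr1, Cacnb1 and Jph1 changed.

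**Figure D1:**
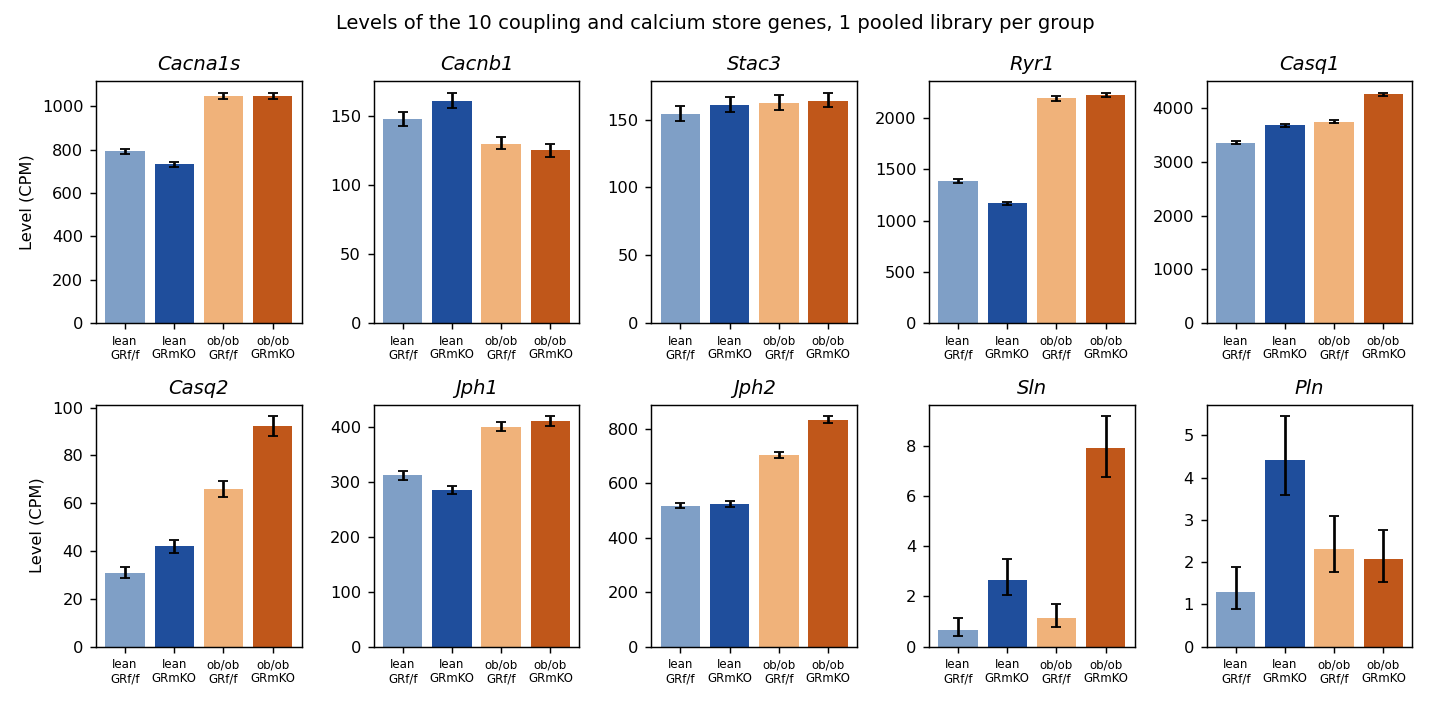
Levels of the 10 genes in CPM (vertical axes, each from 0), with 1 bar per library for lean GRf/f, lean GRmKO, ob/ob GRf/f and ob/ob GRmKO and error bars for the 95% counting interval. Casq2 stands higher in each library from left to right, from 31.0 to 92.2 CPM, Ryr1 is high in both ob/ob libraries, Sln is highest in ob/ob GRmKO at 7.89 CPM and Pln in lean GRmKO at 4.42 CPM.

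Obesity was compared within each genotype, ob/ob against lean. Ryr1 and Casq2 were past 1.5-fold higher in both genotypes. In GRf/f, 4 of the 10 genes were past 1.5-fold higher (Ryr1, Casq2, Sln and Pln) and 0 lower, where 17.1% of all genes tested were past it in either direction, 5.43% higher and 11.7% lower. With 1 CPM added to both libraries 2 remained, Ryr1 and Casq2, and the counting interval of Sln included no change. In GRmKO, 4 were higher (Ryr1, Casq2, Sln and Jph2) and 1 lower (Pln), where the share of all genes was 25.0%, 5.01% higher and 20.0% lower. Sln had passed the minimum of 50 counts only through ob/ob GRmKO and Pln only through lean GRmKO. The filter thus favoured both of these calls in GRmKO, and they are no support beside the share of all genes. The median log2 change of the 10 was 0.42 in GRf/f and 0.52 in GRmKO, against -0.11 and -0.20 for all genes tested.

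GR loss was compared within each background, GRmKO against GRf/f. The calls among the 10 were those of the low-count pump regulators. The minimum of 50 counts, passed by Pln only through lean GRmKO and by Sln only through ob/ob GRmKO, favoured the calls made with these libraries. In lean mice 2 genes were past 1.5-fold higher (Sln and Pln) and 0 lower, where 9.12% of all genes passed, 5.23% higher and 3.89% lower. In ob/ob mice 1 gene was higher (Sln) and 0 lower, where 13.2% of all genes passed, 4.70% higher and 8.47% lower. Medians of the 10 were 0.09 in lean and 0.03 in ob/ob mice, close to the 0.04 and -0.04 of all genes tested.

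**Figure D2:**
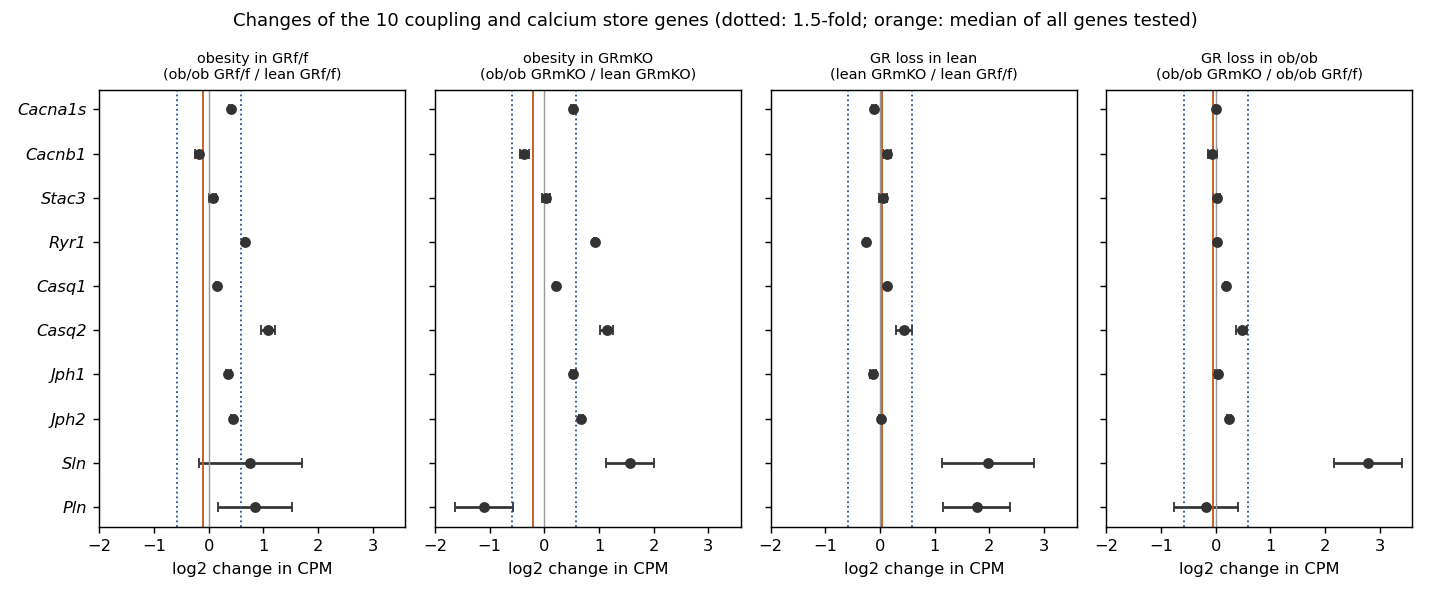
Log2 change in CPM (horizontal axis) of each of the 10 genes in the 4 comparisons, with 95% counting intervals, dotted lines at a 1.5-fold change and an orange line at the median of all genes tested. With obesity most points lie to the right of the orange line, and with GR loss those of Sln lie far to the right, at 1.98 in lean and 2.78 in ob/ob mice.

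Of the 3 genes of the voltage sensor and its adaptor among the 10, none was past 1.5-fold in CPM in any comparison. Cacna1s, which encodes the pore-forming and voltage-sensing subunit, was at 791 CPM in lean GRf/f, 731 in lean GRmKO, 1047 in ob/ob GRf/f and 1049 in ob/ob GRmKO. Both ob/ob libraries were above both lean ones, with log2 changes of 0.40 (interval 0.37 to 0.43) in GRf/f and 0.52 (0.49 to 0.55) in GRmKO, short of 1.5-fold. Relative to the median gene these changes were 0.51 and 0.72, and the latter is past 1.5-fold. GR loss changed Cacna1s by -0.11 in lean mice and by 0.00 in ob/ob mice.

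Cacnb1, which encodes the beta subunit that brings the channel to the triad, was lower with obesity where Cacna1s was higher. It was at 148 and 161 CPM in the lean GRf/f and lean GRmKO libraries and at 130 and 125 CPM in the ob/ob GRf/f and ob/ob GRmKO libraries. Its log2 changes with obesity were -0.18 (interval -0.25 to -0.10) and -0.37 (-0.44 to -0.29), or -0.07 and -0.17 relative to the median gene. Stac3, the adaptor that the sensor needs in order to work with the ryanodine receptor, varied the least of the 10. Its levels of 154, 161, 162 and 164 CPM spanned 1.06-fold over the 4 libraries.

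Ryr1, the calcium release channel of skeletal muscle, was among the genes that differed most with obesity. It was at 1387 CPM (interval 1371 to 1403) in lean GRf/f, 1170 (1155 to 1185) in lean GRmKO, 2192 (2172 to 2212) in ob/ob GRf/f and 2230 (2210 to 2250) in ob/ob GRmKO. The ob/ob libraries were close to each other and above both lean ones, 1.58-fold in GRf/f and 1.91-fold in GRmKO. The log2 changes of 0.66 and 0.93 were 0.77 and 1.13 relative to the median gene. Between the lean libraries Ryr1 was lower in GRmKO by -0.25 (interval -0.27 to -0.22), and between the ob/ob libraries it changed by 0.02 (0.01 to 0.04). The obesity change was thus 0.27 larger in GRmKO than in GRf/f on the log2 scale, with a counting standard error of 0.02, and this difference was not tested against the variation between mice. Ryr1 and Cacna1s did not keep one ratio, and there were 0.570 and 0.625 Cacna1s counts per Ryr1 count in the lean GRf/f and GRmKO libraries against 0.478 and 0.470 in the ob/ob ones.

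Junctophilin 1 and junctophilin 2, the proteins that tie the transverse tubule to the store, were higher with obesity as well. Jph1 was at 312, 285, 401 and 412 CPM in lean GRf/f, lean GRmKO, ob/ob GRf/f and ob/ob GRmKO, and Jph2 at 518, 524, 703 and 833 CPM in the same order. Both ob/ob libraries were above both lean libraries for each gene. The log2 change of Jph1 was 0.36 (interval 0.32 to 0.41) in GRf/f and 0.53 (0.48 to 0.58) in GRmKO. That of Jph2 was 0.44 (0.40 to 0.48) and 0.67 (0.63 to 0.70), the last being past 1.5-fold. Relative to the median gene these changes were 0.47 and 0.72 for Jph1 and 0.55 and 0.87 for Jph2, so that Jph1 in GRmKO is then past 1.5-fold as well. Jph2 made up between 62.4% and 66.9% of the junctophilin counts, most in ob/ob GRmKO. GR loss changed Jph2 by 0.25 (interval 0.21 to 0.28) in ob/ob mice. In lean mice it changed by 0.02, a value that turned to -0.04 with TMM scaling, to -0.03 with DESeq2 size factors and to -0.03 relative to the median gene.

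Of the 7 genes among the 10 that were over 100 CPM, the 4 with the larger obesity changes, Ryr1, Cacna1s, Jph1 and Jph2, have the longest transcripts, and among all genes over 100 CPM length moved with the obesity change. The median log2 change of these genes with obesity in GRf/f went from -0.56 in the 158 genes with a listed transcript of up to 1 kb to 0.17 in the 181 genes of 4 to 6 kb, 0.29 in the 117 genes of 6 to 10 kb and 0.23 in the 24 genes over 10 kb. In GRmKO these medians were -0.55, 0.20, 0.37 and 0.46. The listed transcript of Ryr1 has 15358 bases, that of Cacna1s 6104, that of Jph1 4809 and that of Jph2 4211. All 4 changed more than the median of their length class in both genotypes, Ryr1 by 0.66 against 0.23 and by 0.93 against 0.46. Cacnb1, Casq1 and Stac3 have transcripts of 1 to 2 kb, the class with medians of -0.13 and -0.20. With GR loss the medians of the length classes stayed between -0.04 and 0.05. What part length has in the changes of Ryr1, Cacna1s, Jph1 and Jph2 was not tested.

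**Figure D3:**
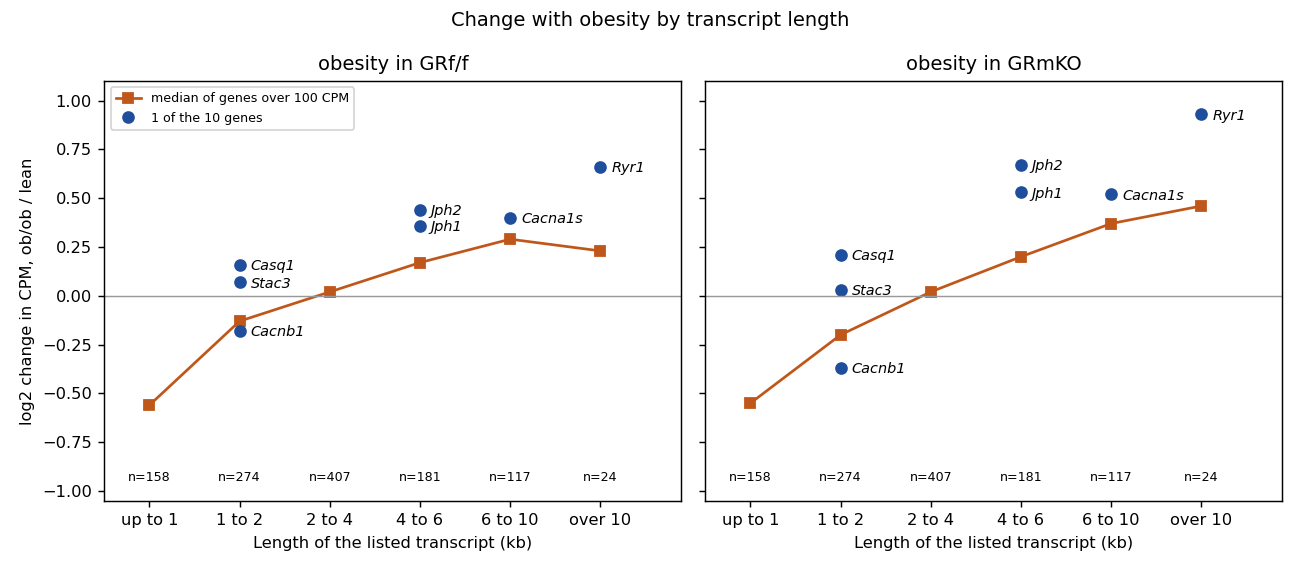
Log2 change in CPM with obesity (vertical axis) against the length class of the listed transcript in kb (horizontal axis), in GRf/f on the left and GRmKO on the right, with squares for the median of genes over 100 CPM, n for their number and circles for those of the 10 genes over 100 CPM. The medians are lowest, near -0.56, in the shortest class, and Ryr1 lies above the median of its class in both panels.

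Of the calsequestrins, which bind calcium inside the store, the minor form differed most between libraries. Casq2, the form of heart and slow fibres, was at 31.0 CPM (interval 28.7 to 33.5) in lean GRf/f, 41.9 (39.1 to 44.8) in lean GRmKO, 65.9 (62.6 to 69.5) in ob/ob GRf/f and 92.2 (88.2 to 96.4) in ob/ob GRmKO. No interval overlapped another, and the level was higher with obesity in each genotype and higher with GR loss in each background. With obesity it was 2.13-fold higher in GRf/f (1.94 to 2.34) and 2.20-fold higher in GRmKO (2.03 to 2.39). With GR loss its log2 change was 0.43 (interval 0.29 to 0.58) in lean and 0.48 (0.38 to 0.58) in ob/ob mice, below the 1.5-fold limit in both.

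Casq1, the form of fast fibres, varied little beside it. Its levels of 3364, 3690, 3750 and 4268 CPM, in the order lean GRf/f, lean GRmKO, ob/ob GRf/f and ob/ob GRmKO, spanned 1.27-fold, and its log2 change was between 0.13 and 0.21 in the 4 comparisons. Casq2 was therefore 0.913% of the calsequestrin counts in lean GRf/f (interval 0.845 to 0.985), 1.12% in lean GRmKO, 1.73% in ob/ob GRf/f and 2.11% in ob/ob GRmKO (2.02 to 2.21). Such a share within a library does not depend on the scaling between libraries. Casq1 counts per Ryr1 count were 2.43 and 3.15 in the lean libraries and 1.71 and 1.91 in the ob/ob ones, GRf/f before GRmKO.

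The summed slow fibre markers were ordered over the libraries as Casq2 was. Of the 8 markers 7 had enough counts, and 7 of 7 were past 1.5-fold higher with obesity in each genotype, with medians of 1.45 in GRf/f and 1.46 in GRmKO. Among all genes tested 5.43% were higher in GRf/f and 5.01% in GRmKO. Single markers did not all share that order, and Myl2 was at 119, 130, 199 and 197 CPM. With GR loss 2 of 7 were past 1.5-fold in lean mice (Tnnt1 and Tpm3) and 3 of 7 in ob/ob mice (Myh7, Tnnt1 and Tpm3), all higher. The shares of all genes that were higher were 5.23% and 4.70%. Myh7, the slow myosin heavy chain, was at 63.0, 84.7, 275 and 418 CPM in the order above. Higher genes with obesity were not confined to the slow markers. Of the 8 fast fibre markers, Myh1 and Myh2 were past 1.5-fold higher in GRf/f, Myh1, Myh2 and Myh4 in GRmKO, and 0 lower. Myh2 changed by 1.08 in GRf/f and 1.76 in GRmKO, and the medians of the 8 were 0.05 and 0.08. In bulk RNA, fewer fibres of a type and less RNA per fibre cannot be told apart, and the part of fibre composition in the change of Casq2 was not tested. Heart markers (Myh6, Nppa, Nppb, Myl7, Tnni3 and Tnnt2) summed to between 1.75 and 5.23 CPM, with the atrial light chain Myl7 and the natriuretic peptide Nppb at 0 in all 4 libraries.

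Over the 4 libraries, the profiles most alike to that of Casq2 were those of Actn2, Zfp641 and Tnnc1, measured by the largest difference of the mean-centred log2 CPM in any library. Actn2, an actinin of the Z-disc, was at 640, 766, 1302 and 1689 CPM, and its largest difference from Casq2 was 0.103. For Zfp641 that difference was 0.119, and for Tnnc1, the troponin C of slow fibres and heart, 0.131. Only 4 libraries underlie this likeness.

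**Figure D4:**
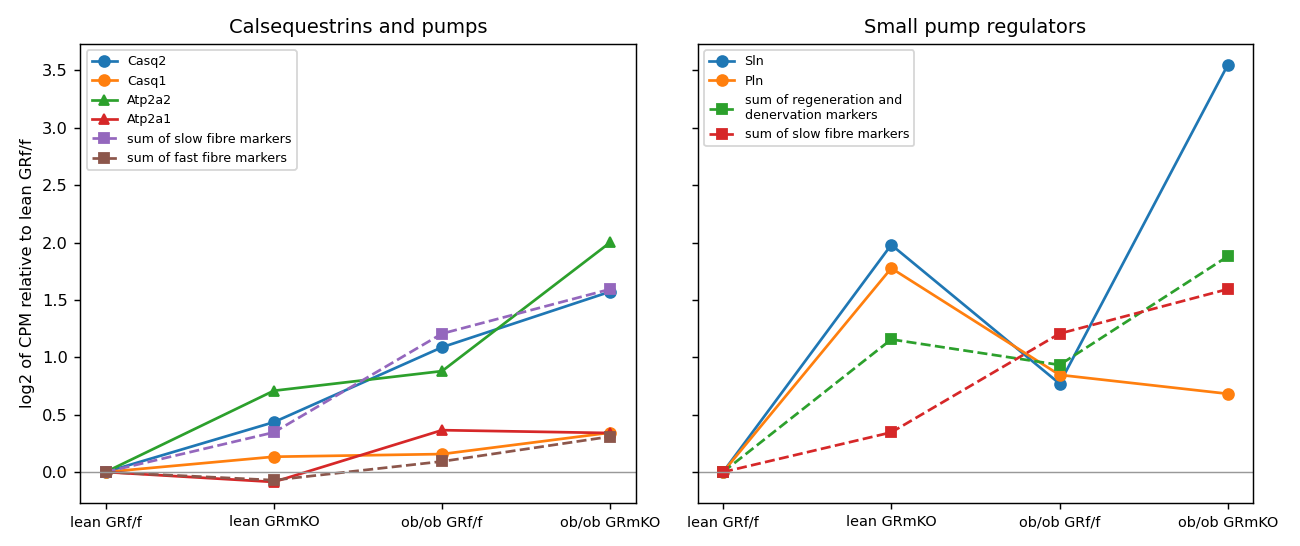
Level in each library as log2 of CPM relative to lean GRf/f (vertical axis), for the calsequestrins and pumps with the summed slow and fast fibre markers on the left, and for Sln and Pln with the summed regeneration and denervation and slow fibre markers on the right; lines only join the values of a gene or list. Casq2, Atp2a2 and the slow fibre sum are higher in both ob/ob libraries, and Sln reaches its highest value in ob/ob GRmKO while Pln does so in lean GRmKO.

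The pump regulators had the lowest levels and the largest changes of the 10 genes. Sln was at 0.674 CPM in lean GRf/f (14.0 counts, interval 0.402 to 1.13), 2.66 in lean GRmKO (53.0 counts, 2.04 to 3.48), 1.15 in ob/ob GRf/f (24.0 counts, 0.770 to 1.70) and 7.89 in ob/ob GRmKO (165 counts, 6.76 to 9.17). Both GRmKO libraries were above both GRf/f libraries, and the GRf/f intervals overlapped each other. With GR loss Sln was 3.95-fold higher in lean mice (2.21 to 7.06) and 6.89-fold higher in ob/ob mice (4.50 to 10.5). With obesity it was 2.96-fold higher in GRmKO (2.17 to 4.02). The 1.70-fold value in GRf/f had an interval from 0.888 to 3.24, so a change there was not detectable at this depth.

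Pln followed another pattern, with lean GRmKO standing above the other libraries. It was at 1.29 CPM in lean GRf/f (26.7 counts, interval 0.894 to 1.89), 4.42 in lean GRmKO (88.0 counts, 3.59 to 5.45), 2.32 in ob/ob GRf/f (48.6 counts, 1.77 to 3.09) and 2.07 in ob/ob GRmKO (43.3 counts, 1.52 to 2.76). The ob/ob libraries overlapped each other. With GR loss Pln was 3.43-fold higher in lean mice (2.22 to 5.22) and at 0.892-fold in ob/ob mice (0.585 to 1.32). With obesity its log2 change was 0.85 (interval 0.17 to 1.52) in GRf/f and -1.10 (-1.63 to -0.58) in GRmKO. These differ by -1.94 with a counting standard error of 0.44, and the difference was not tested against the variation between mice. On the other strand Pln overlaps Cep85l, which was at 61.6, 32.0, 58.8 and 23.5 CPM in lean GRf/f, lean GRmKO, ob/ob GRf/f and ob/ob GRmKO. Whether the libraries kept the strand is not given in the sources used here, and whether exons of both genes overlap was not examined. Reads of these overlapping genes may thus not have been told apart.

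The pump itself was far more abundant than its regulators. Atp2a1, the fast fibre pump, was at 22577, 21266, 29078 and 28583 CPM, and Atp2a2, the slow fibre and heart pump, at 82.6, 135, 152 and 331 CPM in the same order of libraries. Atp2a2 was past 1.5-fold higher in all 4 comparisons, with log2 changes of 0.88 and 1.29 for obesity in GRf/f and GRmKO and of 0.71 and 1.12 for GR loss in lean and ob/ob mice. Its share of the pump counts was 0.364%, 0.631%, 0.520% and 1.15%. Per 1000000 pump counts there were 29.8 Sln counts in lean GRf/f, 124 in lean GRmKO, 39.2 in ob/ob GRf/f and 273 in ob/ob GRmKO. The corresponding numbers for Pln were 56.9, 207, 79.3 and 71.5, so the contrast between both regulators also held relative to the pump. Atp2a2 is not one of the 10 genes, and its transcripts are also made outside muscle fibres.

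Of 7 genes of regenerating and denervated muscle (Myh3, Myh8, Chrng, Chrna1, Myog, Runx1 and Ncam1), 6 had enough counts, Chrng being the exception. Their summed level was 34.5 CPM in lean GRf/f, 76.9 in lean GRmKO, 65.9 in ob/ob GRf/f and 127 in ob/ob GRmKO. In lean mice 6 of the 6 were past 1.5-fold higher with GR loss, where 5.23% of all genes were. In ob/ob mice 4 of 6 were higher, where 4.70% of all genes were. Myh3, listed at 0 in ob/ob GRmKO, was lower, where 8.47% of all genes were. Its expected counts were 22.1, 77.2, 142 and 0 in lean GRf/f, lean GRmKO, ob/ob GRf/f and ob/ob GRmKO. It passed the minimum mean count only through ob/ob GRf/f. The filter thus favoured this lower call of Myh3, which is no support beside the share of all genes. Chrna1, a subunit of the acetylcholine receptor, was at 18.4, 44.0, 32.5 and 74.3 CPM, and Myog, the myogenic factor myogenin, at 6.17, 13.6, 7.52 and 21.1 CPM. With obesity 4 of 6, Myh3 among them, were higher in GRf/f, where 5.43% of all genes were. The filter favoured this higher call of Myh3 as well. In GRmKO 4 were higher and Myh3 lower, where 5.01% of all genes were higher and 20.0% lower. The part of these regeneration and denervation genes in the change of Sln was not tested.

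Sln was most alike in profile to AW551984, Ak4 and Sytl2, but its largest differences from them were 0.401, 0.545 and 0.648 on the log2 scale. For Pln the nearest profiles were those of Taf1b (0.179), Hid1 (0.200) and Robo1 (0.255). Several of these are low as well, with Hid1 between 1.89 and 5.36 CPM.

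Beyond the 10 genes, 83 further genes of the pathway were followed, of which 71 had enough counts. With obesity 6 were past 1.5-fold higher and 3 lower in GRf/f, and 8 higher and 5 lower in GRmKO, with medians of 0.11 and 0.13, where 17.1% and 25.0% of all genes passed in either direction. With GR loss 2 were higher and 1 lower in lean mice, and 5 higher and 4 lower in ob/ob mice, with medians of 0.05 and 0.08, where 9.12% and 13.2% of all genes passed. Taken in either direction, the share of these pathway genes that passed was below that of all genes in each comparison. By direction, 5.43% of all genes were higher and 11.7% lower with obesity in GRf/f, and 5.01% and 20.0% in GRmKO. With GR loss these shares were 5.23% and 3.89% in lean mice and 4.70% and 8.47% in ob/ob mice. The share of pathway genes that were higher was above that of all genes with obesity in each genotype and with GR loss in ob/ob mice.

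Other subunits and adaptors of the voltage sensor (5 of 9 with enough counts) held 1 higher gene with obesity in GRmKO, Cacna2d1, the alpha2-delta subunit of the channel. It was at 200 CPM in lean GRf/f, 169 in lean GRmKO, 261 in ob/ob GRf/f and 315 in ob/ob GRmKO, a log2 change of 0.90 with obesity in GRmKO. Cacnb3 was at 3.77, 4.27 and 3.65 CPM in 3 libraries and listed at 0 in ob/ob GRf/f, so it passed as lower with obesity in GRf/f and as higher with GR loss in ob/ob mice, and no fold is given. Of the release channel's relatives and partners (14 of 17), none passed with obesity in GRf/f or with GR loss in lean mice. Selenon, a selenoprotein of the store, was lower with obesity in GRmKO (-0.60). Tmem38b, a counter-ion channel of the store, was lower with GR loss in ob/ob mice, at 44.0, 33.1, 54.4 and 32.6 CPM over the libraries. The cardiac release channel Ryr2 stayed between 0.0547 and 0.523 CPM.

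Among genes of triad and tubule structure (8 of 10), Speg, a kinase of the triad, was higher with obesity in GRmKO. Mtm1, the phosphatase myotubularin, was lowest in ob/ob GRmKO, with 11.9, 13.5, 13.5 and 6.94 CPM, and passed as lower with obesity in GRmKO and with GR loss in ob/ob mice. Dysf, a membrane repair protein of the fibre surface and tubules, was higher with GR loss in ob/ob mice (0.59).

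Besides Atp2a2, Mrln stood out among the pumps and small regulators (4 of 5). Mrln encodes myoregulin, another small inhibitor of the pump, and was highest in lean GRf/f, where Sln was lowest. It was at 34.5 CPM in lean GRf/f, 23.2 in lean GRmKO, 14.7 in ob/ob GRf/f and 10.8 in ob/ob GRmKO. With obesity its log2 change was -1.23 in GRf/f and -1.11 in GRmKO, and its listed transcript of 443 bases is in the shortest length class, the class with the lowest medians. The part of length in it was not tested.

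Store-operated entry and surface calcium transport (10 of 11) had few changed genes. Slc8a3, a sodium-calcium exchanger, was at 35.3, 60.8, 37.9 and 81.9 CPM, higher with GR loss by 0.79 in lean and by 1.11 in ob/ob mice. Stim2, a calcium sensor of the store, was lower with GR loss in ob/ob mice (-0.71). Of the 3 calcium buffers, 0 passed in any comparison. In mitochondrial calcium uptake (8 of 8), Mcub, the inhibitory subunit of the uniporter, was lower with obesity (-0.82 in GRf/f and -1.43 in GRmKO) and with GR loss in ob/ob mice (-0.63), with 4.05, 3.98, 2.29 and 1.48 CPM over the libraries.

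For fibre excitation (8 of 9), the sodium pump subunit Atp1b1 was higher with obesity in GRf/f. Calcium signal readers (11 of 11) had 3 higher genes in each genotype with obesity. The share of all genes that were higher was 5.43% in GRf/f and 5.01% in GRmKO. Camk2b, a calcium-calmodulin kinase, was at 81.6, 73.3, 134 and 159 CPM and changed by 0.72 in GRf/f and 1.12 in GRmKO. Nfatc2, a transcription factor that calcineurin activates, was at 9.24, 5.01, 15.6 and 13.8 CPM, higher with obesity by 0.76 and 1.46 and lower with GR loss in lean mice by -0.88. Nfatc1 was higher in GRf/f alone by this limit (0.73), Ppp3ca, a calcineurin subunit, in GRmKO, and the difference between genotypes was not tested for either. Rcan1, an inhibitor of calcineurin, was at 74.3, 105, 73.5 and 138 CPM and higher with GR loss in ob/ob mice (0.91).

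**Figure D5:**
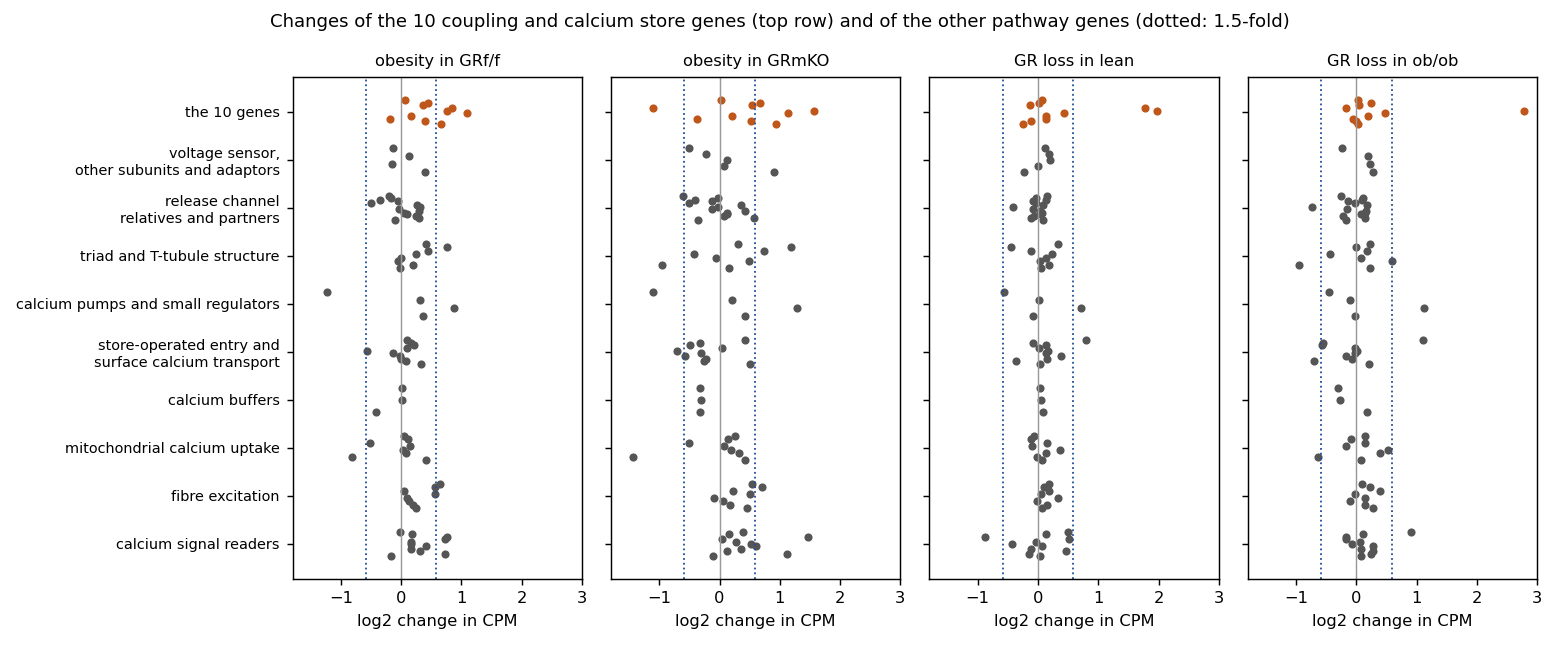
Log2 change in CPM (horizontal axis) of the 10 genes (orange, top row) and of the other pathway genes with enough counts (grey, 1 row per list) in the 4 comparisons, with dotted lines at a 1.5-fold change; Cacnb3 is left out of both comparisons with ob/ob GRf/f, where it is listed at 0. Most grey points lie between the dotted lines, and with GR loss in ob/ob mice Sln, at 2.78, lies beyond all other points shown.

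Markers of other cells in the muscle were followed beside these genes. Adipocyte markers summed to 975, 631, 563 and 348 CPM. With GR loss 5 of 6 were lower in each background, where 3.89% of all genes were in lean and 8.47% in ob/ob mice. Macrophage markers summed to 166, 215, 133 and 82.1 CPM, and 5 of 5 were lower with obesity in GRmKO, where 20.0% of all genes were. With GR loss their median log2 change was 0.38 in lean mice, where 0 passed, and -0.68 in ob/ob mice, where 3 passed as lower. Of all genes, 9.12% passed in either direction in lean mice, and 8.47% were lower in ob/ob mice. Smooth muscle markers stayed between 359 and 429 CPM and Schwann cell markers between 480 and 665 CPM. The adipocyte sum ran over the libraries in the reverse order of Casq2, but its genes did not all do so. From lean to ob/ob GRf/f, Cfd went from 267 to 14.4 CPM and Fabp4 from 483 to 308 CPM. Lep went the other way, from 14.1 to 69.6 CPM, and Adipoq was nearly level at 81.4 and 80.4 CPM. The part of these cells in the changes of the 10 genes was not tested. The 10 genes lie on several chromosomes, Cacna1s (chr1:136052750-136119822, + strand), Casq1 (chr1:172209894-172219868, - strand) and Jph1 (chr1:16964560-17097889, - strand) sharing chromosome 1 at a distance from each other. Ryr1 lies at chr7:29003344-29125179 on the - strand, where its listed transcript has 106 exons. No other coding gene overlaps any of the 10 on the same strand.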

How the data were processed

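Gastrocnemius RNA of 4 groups was sequenced by the authors as 100-bp paired-end reads, 1 library per group from pooled RNA of 3 mice. The authors quantified protein-coding GENCODE M20 transcripts (mm10) with Salmon v1.2.1, summarized them to genes with tximport (lengthScaledTPM, R v3.5.0), and named genes with biomaRt. The deposited values are expected counts, not normalized between libraries; length scaling sets them to a gene's mean transcript length over libraries, so a shift between isoforms of unequal length should not alter them. Library totals ran from 19897754 to 20959781.

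CPM was computed over all deposited genes with Python 3.11.15, pandas 2.3.3 and numpy 2.4.6. Wilson 95% intervals were taken from scipy 1.17.1, for a change conditional on the sum of both counts. They were checked on simulated data. A gene was called past a 1.5-fold change in CPM among genes with a mean of at least 50 expected counts; a count of 0 was set to 0.5 counts there. NOISeq, the authors' method, draws simulated replicates and was not used, and no p-value is given. edgeR 4.0.16 and DESeq2 1.42.0 (R 4.3.3) gave scaling factors only, from expected counts rounded to whole numbers. Alternatives were these factors, library size without the 50 most abundant genes, genes above 0 or with at least 10 counts in every library, a 2-fold limit, 1 CPM added, the longest coding transcript, counts per length for ratios and, chosen after seeing the data, changes relative to the median gene. Figures were drawn with matplotlib 3.10.9.

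The 10 genes and the pathway and marker lists were chosen with earlier results of these data known. Named were all 10, Nr3c1, Atp2a1, Atp2a2, marker genes set beside a result, the 5 pathway genes with the largest change in each direction past 1.5-fold, and the 3 genes most alike in profile to each of the 10 with a log2 range of at least 1. Speg, Atp1b1, Ppp3ca, Ryr2, Ryr3 and Cep85l are named outside this rule, with their values seen. Some genes that met the rule or were counted in the lists are not reported here. Transcript lengths and coordinates are from GENCODE M21 on GRCm38, where 22252 of 22252 listed transcripts were found, 21684 under the same name, and promoters from RefSeq on GRCm38.p6. Tissues and models other than gastrocnemius of these 4 groups were not analysed here.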

Additional observations from a re-analysis of the deposited data

Results flagged for a closer look

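For Pln the obesity change was of opposite sign in both genotypes, with a log2 change of 0.85 in GRf/f and -1.10 in GRmKO, which differ by -1.94. Pln was at 1.29 CPM in lean GRf/f, 4.42 in lean GRmKO, 2.32 in ob/ob GRf/f and 2.07 in ob/ob GRmKO. For Ryr1 the change with GR loss was of opposite sign in both backgrounds, -0.25 in lean and 0.02 in ob/ob mice, a difference of 0.27, and the second of these values is near 0. Each group is 1 library, so neither difference was tested against the variation between mice.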

How the results depend on the processing

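Of the 40 log2 changes of the 10 genes (4 comparisons), 39 kept their sign in every scaling, centring and pseudocount alternative run, and that of Jph2 with GR loss in lean mice did not. The number of genes past the limit and higher with obesity in GRf/f, 4 as reported, was 1 (Casq2) at a 2-fold limit and 2 (Ryr1 and Casq2) with 1 CPM added to both libraries. In GRmKO, 4 as reported, it was 2 (Casq2 and Sln) at a 2-fold limit. It was 6 (also Cacna1s and Jph1) in each rescaling run. These were TMM factors, DESeq2 size factors, library size without the 50 most abundant genes, and changes relative to the median gene. With 1 CPM added, the change of Sln with GR loss was 1.13 in lean and 2.05 in ob/ob mice in place of 1.98 and 2.78. Over all genes tested, 612 were higher and 1316 lower with obesity in GRf/f, 231 and 364 at a 2-fold limit, and 1135 and 2347 among genes above 0 in every library. In GRmKO the corresponding counts were 565 and 2249, 195 and 796, and 1110 and 3402. With GR loss they were 590 and 438, 186 and 163, and 1343 and 1102 in lean mice, and 530 and 955, 193 and 284, and 1222 and 1737 in ob/ob mice. These follow from the limits and the number of genes tested. Dividing counts by transcript length lowered the share of Casq2 among calsequestrin counts to between 0.661% and 1.54% and kept its order over the libraries. No paired analysis was possible because each group is 1 library, and for the same reason no library could be left out. Depth limits Sln and Pln, with 14.0 to 165 and 26.7 to 88.0 counts.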

Other observations

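Ryr3, a ryanodine receptor of immature muscle and of other tissues, was listed at 0 in lean GRf/f, lean GRmKO and ob/ob GRf/f and at 3.65 CPM (76.6 expected counts) in ob/ob GRmKO. It is below the minimum of 50 counts on average, its value was noticed after the data had been seen, and its recurrence in a second library could not be examined.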
